A study of Nasonia vitripennis and Nasonia giraulti with 12 samples.

Results

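Of 24337 genes counted in adult jewel wasps, 110 were male-limited in both Nasonia giraulti and Nasonia vitripennis by a rule on read levels. They were chosen by their mean counts per 1000000 counts of the library (CPM) in the same 12 libraries that are described here. A gene had to reach 10 CPM or more in the males of both species. Its log2(mean CPM + 0.5) had to be at least 3.5 higher in males than in females in each species, which is 11.3-fold on that scale. The male levels of the species had to lie less than 2 log2 units (4-fold) apart. The levels and the sex differences below are therefore a description of chosen genes, and no test is drawn from them.

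The libraries held whole-body RNA of adults collected 24 h after they emerged. The groups were males and females of N. giraulti (strain R16A) and males and females of N. vitripennis (strain AsymCX), with 3 libraries each. No treatment is named. Each library pooled 10 animals of a single sex, and the replicates are described as independent batches. Whole bodies mix all organs, so fewer cells of a type and less RNA per cell cannot be told apart. Total counts per library ran from 23763596 to 51374887, and 3 counts corresponded to 0.0584 to 0.126 CPM in a single library.

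Nasonia are parasitoid wasps in which males are haploid and develop from unfertilised eggs, whereas females are diploid. The sexes also differ in their organs. Males have testes and accessory glands, and females have ovaries, a venom gland and an ovipositor. In insects in general, testes and male accessory glands are known for genes that are hardly read elsewhere in the body. The organ from which the reads of these 110 genes came was not measured. The file does not pair its identifiers with gene names. The name table used here, with 15501 genes of another annotation, held 0 of the identifiers, so what the genes encode is not stated and no sequence is shown. For the same reason the labelled sexes were not checked against named marker genes. Gene lengths were not used, so an order of genes below is an order of reads and not of transcripts.

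Many genes met the rule in a single species. In N. giraulti, 170 genes met the male level and the sex difference, and in N. vitripennis 235 did. Both were met in both species by 124 genes, which is 72.9% of the N. giraulti list and 52.8% of the N. vitripennis list. The limit on the male species difference removed 14 of them, 10 with the higher level in N. giraulti males and 4 with the lower. Of the 46 genes that met the rule in N. giraulti alone, 33 still had a log2 difference of at least 1 toward males in N. vitripennis. Of the 111 that met it in N. vitripennis alone, 95 did so in N. giraulti. In 73 of these 111 the N. giraulti male level was under 10 CPM, against 25 of the 46 for the N. vitripennis male level. The same rule with the sexes exchanged was met by 513 genes.

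**Figure D1:**
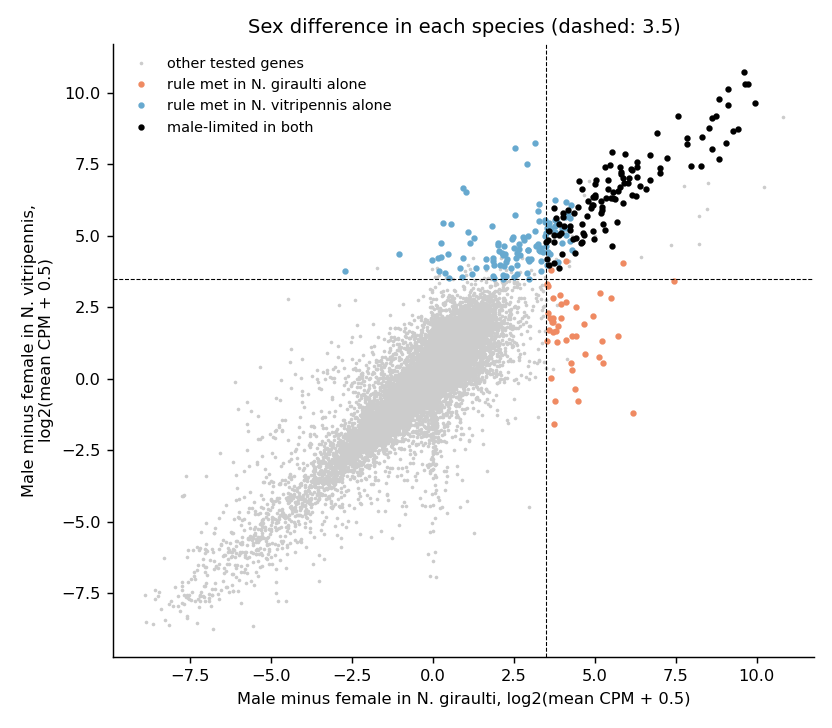
Male minus female difference in log2(mean CPM + 0.5) of each tested gene, N. giraulti on the x axis and N. vitripennis on the y axis. The 110 male-limited genes (black) lie right of and above the dashed lines at 3.5 by selection, and the 46 and 111 genes that met the rule in a single species are coloured.

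The word limited held for most of the 110 genes and not for all. In females, 73 of them stayed under 1 CPM in each N. giraulti library and 79 in each N. vitripennis library. Their median level was 0.386 CPM in N. giraulti females and 0.260 CPM in N. vitripennis females, a few times what 3 counts represent. In males the medians were 35.6 CPM in N. giraulti and 88.3 CPM in N. vitripennis. All 110 had reads in each of the 6 male libraries, and 93 to 108 had at least 1 read in a given female library. Every male library lay above every female library in all 110 genes. The narrowest gap was in Nasvi2EG023163, whose lowest male library stood 1.69-fold above its highest female library.

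**Figure D2:**
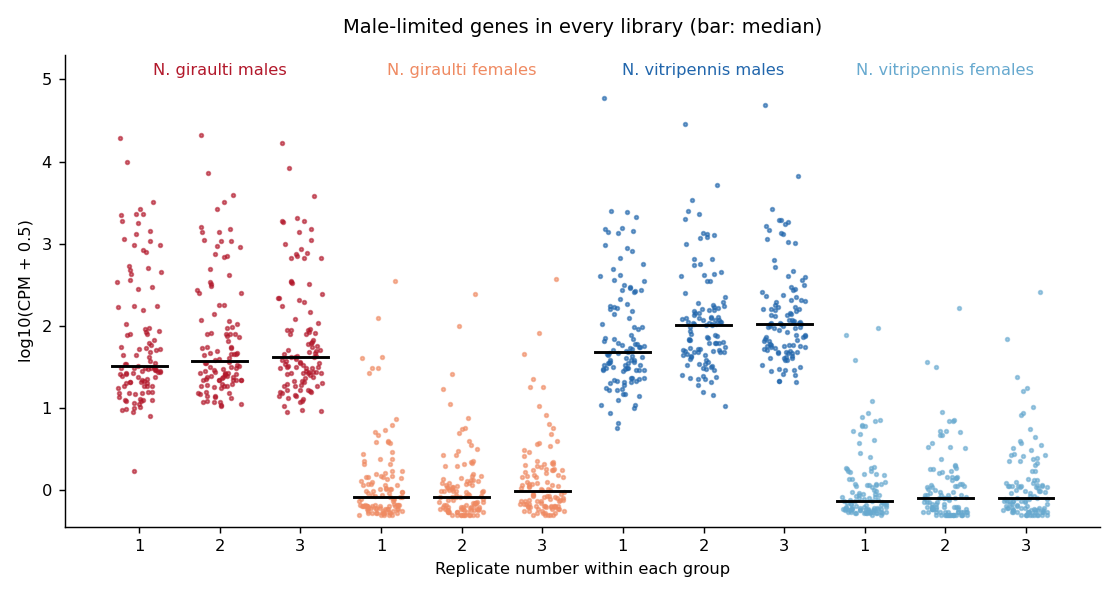
Level of each of the 110 male-limited genes as log10(CPM + 0.5), per library, with replicate numbers on the x axis and a bar at the median. Medians were 31.6, 36.8 and 41.1 CPM in N. giraulti males, 0.326, 0.323 and 0.458 CPM in N. giraulti females, 47.8, 102 and 103 CPM in N. vitripennis males and 0.232, 0.286 and 0.305 CPM in N. vitripennis females.

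Only a few genes had no female reads at all. There were 2 with 0 reads over the 3 N. giraulti female libraries and 2 with 0 over the N. vitripennis ones, and they are named here because the counts are so small, after their values were seen. Nasvi2EG012314 had 0 reads in females of both species, and its levels were 19.6, 18.0 and 15.9 CPM in N. giraulti males and 37.2, 31.1 and 40.4 CPM in N. vitripennis males. Its counts held fractions, whose source is not stated, so its level is uncertain. Nasvi2EG013662 had 0 reads in N. giraulti females and 1 in N. vitripennis females. Nasvi2EG010600 had 11 reads in N. giraulti females and 0 in N. vitripennis females. In single female libraries, 3 counts would have been 0.0768 to 0.0924 CPM in N. giraulti and 0.0631 to 0.122 CPM in N. vitripennis.

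At the other end, 7 genes averaged 10 CPM or more in N. giraulti females, and 4 of the 110 did in N. vitripennis females. Nasvi2EG006382 had the highest female level, with 350, 241 and 375 CPM in N. giraulti females and 92.7, 164 and 255 CPM in N. vitripennis females. Its male levels were 3234, 3911 and 3838 CPM in N. giraulti and 2137, 5114 and 6718 CPM in N. vitripennis. It is thus a gene read in both sexes, with male levels about an order of magnitude or more above female ones. It entered the list with a log2 sex difference of 3.51 in N. giraulti, the value nearest to the threshold there.

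A handful of genes carried most of the reads. In N. giraulti males the 110 genes together held 5.68% ± 0.432 of all counts (SD, n = 3) and in N. giraulti females 0.0614% ± 0.0133. In N. vitripennis males they held 7.86% ± 1.31 and in N. vitripennis females 0.0371% ± 0.00884. The 513 female-limited genes held 8.72% ± 0.495 of counts in N. giraulti females and 10.1% ± 0.545 in N. vitripennis females. Of the reads of the 110 genes, the 5 with the most male reads took 62.6% ± 2.1 in N. giraulti males and 71.6% ± 7.51 in N. vitripennis males.

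Nasvi2EG017727 had the most male reads of all, with 19351, 21187 and 16710 CPM in N. giraulti males and 59588, 28937 and 48809 CPM in N. vitripennis males. In females it stood at 39.7, 16.5 and 44.8 CPM in N. giraulti and at 77.0, 35.9 and 68.8 CPM in N. vitripennis. The males of the species did not overlap, although the N. vitripennis libraries differed more among themselves than their lowest differed from the highest N. giraulti library. Without this gene the list held 3.77% ± 0.323 of counts in N. giraulti males and 3.28% ± 0.575 in N. vitripennis males. With it left out, the N. vitripennis mean was no longer the larger.

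Nasvi2EG010256 came next by reads and had the reverse species order. It had 9736, 7285 and 8305 CPM in N. giraulti males and 2493, 3436 and 2630 CPM in N. vitripennis males. Its female levels were 26.0, 10.6 and 17.6 CPM in N. giraulti and 4.71, 1.31 and 2.27 CPM in N. vitripennis. N. giraulti lay above N. vitripennis in each sex with no overlap. Nasvi2EG000723 differed less, with 2317, 3242 and 1865 CPM in N. giraulti males and 2411, 1304 and 1817 CPM in N. vitripennis males, which overlapped. It stayed between 4.87 and 7.58 CPM in N. giraulti females and between 5.08 and 8.04 CPM in N. vitripennis females.

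The sex difference had a median of 5.45 log2 units in N. giraulti, with a range of 3.51 to 9.93, and of 6.43 in N. vitripennis, with a range of 3.86 to 10.7. It was larger in N. giraulti for 14 genes and larger in N. vitripennis for 96. On this scale a gene at 10 CPM in males can reach 4.39 at most and needs a female mean of 0.428 CPM or less, so the male level caps the size of the difference. All 110 genes passed the filter on low counts. In the fit across 16536 genes, all 110 were called higher in males in N. giraulti, where 30.0% of genes were. All 110 were called in N. vitripennis too, where 32.6% of genes were (edgeR's quasi-likelihood test at a Benjamini-Hochberg adjusted p under 0.05). These contrasts chose the genes, so nothing follows from the calls.

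The largest differences held in both species belonged to 4 genes, by the smaller of the 2 values. Nasvi2EG019621 had 2210, 1612 and 1872 CPM in N. giraulti males and 2.25, 0.863 and 2.12 CPM in N. giraulti females. In N. vitripennis it had 1527, 1970 and 1641 CPM in males and 1.35, 0.571 and 0.610 CPM in females. Its log2 difference was 9.72 in N. giraulti and 10.3 in N. vitripennis, and its male levels overlapped between the species. Nasvi2EG005775 reached 9.64 in N. giraulti and 10.3 in N. vitripennis. The values were 9.93 in N. giraulti and 9.62 in N. vitripennis for Nasvi2EG019652, and 9.62 in N. giraulti and 10.7 in N. vitripennis for Nasvi2EG019623. All 4 averaged 1031 CPM or more in both male groups, and a difference of this size needs many male reads as well as few female ones.

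The genes nearest to each threshold of the rule were as follows. For the N. giraulti male level, Nasvi2EG014871 was inside at 10.03 CPM and Nasvi2EG024735 outside at 9.57 CPM, and 23 genes failed on this alone. For the N. vitripennis male level, Nasvi2EG023163 was inside at 14.8 CPM and Nasvi2EG005253 outside at 9.94 CPM, with 2 failing alone. For the sex difference in N. giraulti, Nasvi2EG006382 was inside at 3.51 and Nasvi2EG014929 outside at 3.46 log2 units, with 31 failing alone. In N. vitripennis these were Nasvi2EG017396 at 3.86 and Nasvi2EG013890 at 3.30, with 10 failing alone. For the species limit in males, Nasvi2EG022740 was inside at -1.98 and Nasvi2EG005626 outside at -2.04 log2 units, N. giraulti minus N. vitripennis.

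The sex difference was then read in libraries left aside when the rule was applied. The rule itself was set with results of all 12 libraries known, and each split gave its own list of genes. With the rule applied to 8 libraries and the 4 libraries of a replicate number left aside, 106, 111 and 110 genes were chosen when numbers 1, 2 and 3 were left aside. In the libraries left aside, 92 of the 106, 106 of the 111 and 101 of the 110 again had a difference of at least 3.5 in both species. The whole rule, with the male level and the species limit, was met there by 84, 97 and 93 genes. The median difference in the 4 libraries numbered 1 was 5.26 log2 units in N. giraulti and 5.90 in N. vitripennis. For number 2 it was 5.45 in N. giraulti and 6.59 in N. vitripennis, and for number 3 it was 5.43 in N. giraulti and 6.65 in N. vitripennis. The lowest single values were 1.57 in N. giraulti and 2.14 in N. vitripennis, both in the libraries numbered 1, so all chosen genes were higher in males there too. Leaving out any single library or replicate number gave between 105 and 115 genes.

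In males most of the genes had fewer reads in N. giraulti. The difference of N. giraulti minus N. vitripennis males had a median of -0.80 log2 units, with 20 genes above 0 and 90 below. Among all 7276 genes at 10 CPM or more in both male groups and within the same 2 log2 units, the median was -0.16 and 35.1% were above 0. With trimmed-mean scaling (TMM) the median of the 110 was -0.61 and that of the genes at 10 CPM or more was 0.04. In that fit 8 genes, 7.27%, were called higher in N. giraulti males, against 15.0% of all genes, and 32, 29.1%, were called lower, against 16.6%. Blocking on replicate number, 53 were called lower, 48.2% against 23.5% of all genes. The rule bounded this contrast, so the calls are a description. The count of 32 moved with single libraries. It was 18, 11 and 13 without N. giraulti male replicates 1, 2 and 3, and 17 and 9 without N. vitripennis male replicates 2 and 3. No share of all genes was taken for those fits, so these counts have nothing to be set against. By mean level, 85 to 93 of the 110 genes lay below 0 whichever male library was left out.

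The species difference in males was not even over read levels. Ranked by male reads, the top 28 genes had 174.5 CPM or more over the 6 male libraries. Of these, 15 were higher and 13 lower in N. giraulti and the median was 0.07 log2 units. In the other groups by rank, from low to high, 4 of 28, 0 of 27 and 1 of 27 were higher, with medians of -0.88, -1.07 and -0.92. All genes of the same levels and within the same 2 log2 units were taken beside them, the list included. Their medians were -0.21, -0.20 and -0.17 in those groups and 0.00 in the highest. The sources used here do not name the reference to which each species was aligned, and its part in these differences was not tested.

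**Figure D3:**
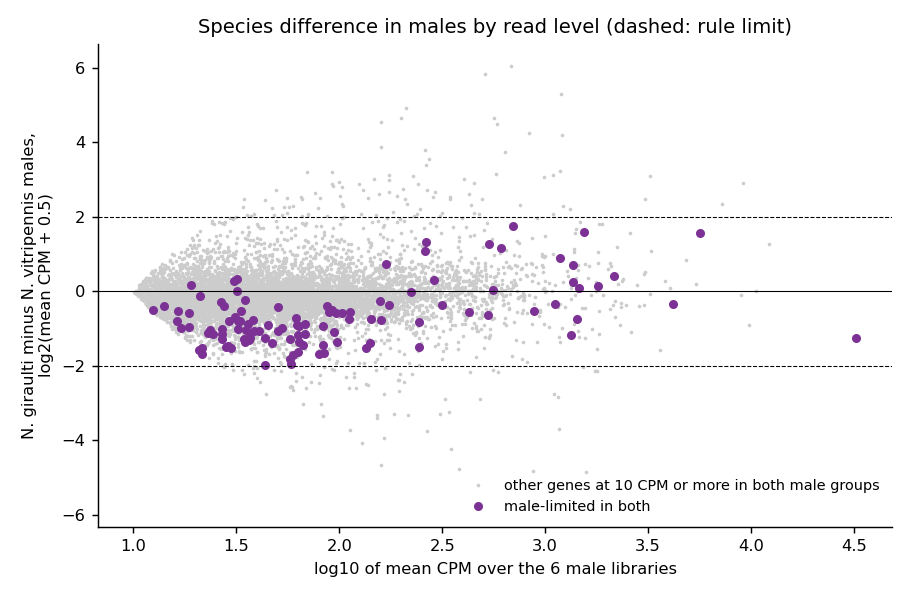
Difference of N. giraulti minus N. vitripennis males in log2(mean CPM + 0.5) against the log10 mean CPM of the 6 male libraries, for the 110 male-limited genes (purple) and other genes at 10 CPM or more in both male groups (grey). Purple points lie mostly below 0 at low and middle levels, and 15 of the 28 with the most reads lie above 0, within the dashed limit of 2.

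Single genes ranged over nearly the whole width that the rule allowed. Nasvi2EG005189 had the highest value, 1.76 log2 units, with 1086, 1072 and 1091 CPM in N. giraulti males and 253, 425 and 279 CPM in N. vitripennis males. Nasvi2EG006381 stood at 1.58 and the abundant Nasvi2EG010256 at 1.57. At the low end was Nasvi2EG022740, with 25.5, 18.3 and 8.27 CPM in N. giraulti males and 35.7, 65.9 and 108 CPM in N. vitripennis males. Nasvi2EG000661, at -1.94, had 14.0, 26.5 and 31.0 CPM in N. giraulti males and 45.4, 125 and 109 CPM in N. vitripennis males. In each of these genes the male libraries of the species did not overlap, but the replicate spread of the last pair was wide. The Spearman correlation of male levels between the species was 0.928 over the 110 genes, which share libraries and are not replicates. The rule bounded it, since male levels could differ by less than 2 log2 units within a far wider range of levels.

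A single library moved many of the genes together. N. vitripennis male replicate 1 was the lowest of its group for 87 of the 110 genes, against 45.8% of all tested genes. The median deviation of the 110 from their group mean was -0.56 log2 units in it, against 0.18 and 0.33 in replicates 2 and 3. Over all tested genes the median deviation in that library was -0.06. In N. giraulti male replicate 1 the median deviation was -0.02, and 49 of the 110 were lowest there, against 41.5% of all tested genes. By the same ranks of male reads, from low to high, the median deviation in N. vitripennis male replicate 1 was -0.67, -0.76, -0.59 and -0.13. The library was also the deepest, with 51374887 counts. Without it the median difference of N. giraulti minus N. vitripennis males was -1.02, with 18 genes above 0 and 92 below.

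**Figure D4:**
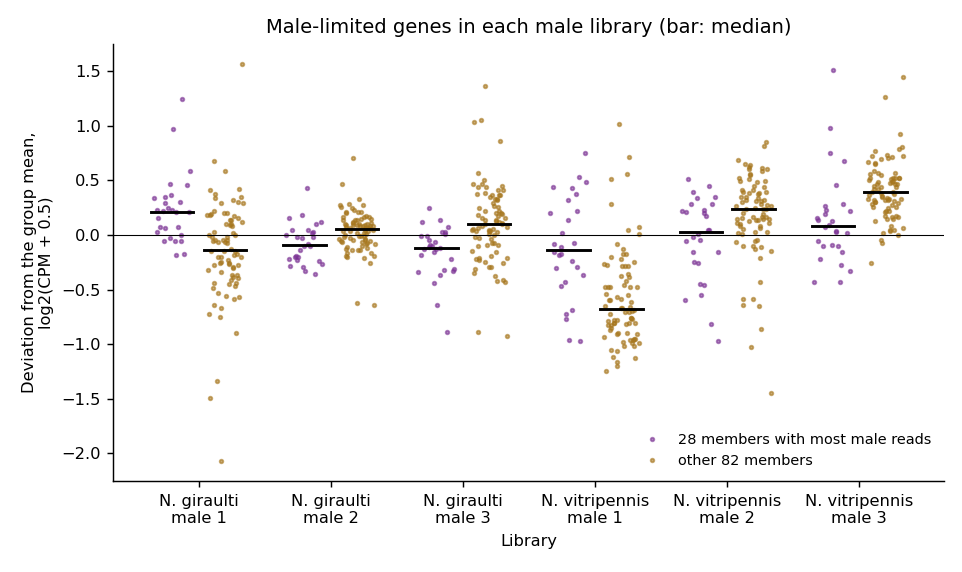
Deviation of each male-limited gene from its group mean in log2(CPM + 0.5), in the 3 N. giraulti and 3 N. vitripennis male libraries, for the 28 genes with the most male reads (purple) and the other 82 (brown), with bars at the medians. In N. vitripennis male replicate 1 the brown points lie mostly below 0, whereas the purple ones spread around it.

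The spread between male replicates differed widely among the genes. Its SD in log2 units, pooled over both species, ran from 0.125 to 1.49 with a median of 0.473. Nasvi2EG019655 was the steadiest, at 795, 704 and 773 CPM in N. giraulti males and 296, 352 and 292 CPM in N. vitripennis males. Nasvi2EG013913 was nearly as steady, at 21.1 ± 1.41 CPM in N. giraulti males and 37.1 ± 4.14 CPM in N. vitripennis males (SD, n = 3 each). The least steady was Nasvi2EG023163, with 1.21, 11.3 and 18.1 CPM in N. giraulti males and 5.22, 18.3 and 20.8 CPM in N. vitripennis males. Both libraries numbered 1 were the low ones in it. Nasvi2EG006378 varied nearly as much without that arrangement, with 51.4, 10.7 and 8.72 CPM in N. giraulti males and 28.1, 9.93 and 77.2 CPM in N. vitripennis males. Over the 110 genes, 57 lay at least 0.5 log2 units below their mean in N. vitripennis male replicate 1 and 12 in N. giraulti male replicate 1, and 11 of these 12 were among the 57.

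The species difference within females was the contrast the rule used least. It held female levels down in both species but did not set which species was higher. There, 12 of the 110 genes were called higher in N. giraulti, which is 10.9% of them against 12.5% of all genes tested, and 10 were called lower, 9.09% against 18.4% (edgeR adjusted p under 0.05). Blocking on replicate number, 18 were called higher, 16.4% against 18.4% of all genes, and 13 lower, 11.8% against 30.4%. In neither fit did a share exceed that of all genes. The female counts were small, with 11 of the 22 called genes under 1 CPM in both female groups. The split between higher and lower moved with the scaling, to 19 and 9 genes with upper-quartile scaling and to 17 and 9 with library size alone. The higher count was 19 without N. giraulti male replicate 1. Shares of all genes were not taken for these scalings or without that library, so the counts there have nothing to be set against. The median difference of the 110 in log2(mean CPM + 0.5) was 0.10. In the TMM fit their median was 0.21 and that of all tested genes -0.20, with 66 of the 110 above 0 and 43 below. With upper-quartile scaling the medians were 0.44 for the 110 and 0.02 for all tested genes. The Spearman correlation of female levels between the species was 0.858 over the genes, whose female levels the rule capped in both.

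Nasvi2EG006381 had the clearest difference between the females. Its levels were 124, 97.8 and 80.4 CPM in N. giraulti females and 5.68, 4.16 and 8.20 CPM in N. vitripennis females. It was 3.85 log2 units higher in N. giraulti females (SE 0.44, edgeR adjusted p = 2.92e-05), with no overlap. In males it had 2267, 2623 and 2073 CPM in N. giraulti and 412, 570 and 1342 CPM in N. vitripennis. Its sex difference was accordingly 4.52 log2 units in N. giraulti and 6.89 in N. vitripennis. Nasvi2EG006381 and Nasvi2EG006382 stand in adjoining rows of the table and both had female levels far above the median of the list, but the female difference of Nasvi2EG006382 did not pass the test (log2 0.70, SE 0.40, edgeR adjusted p = 0.206). Blocking on replicate number it did (edgeR adjusted p = 0.0487).

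Of the other genes higher in N. giraulti females, Nasvi2EG010256 differed by 2.48 log2 units (SE 0.41, edgeR adjusted p = 0.000544). Nasvi2EG005189 differed by 1.84 (SE 0.31, edgeR adjusted p = 0.000548), on levels of 0.973, 0.986 and 1.26 CPM in N. giraulti females and 0.316, 0.122 and 0.305 CPM in N. vitripennis females. Both were also higher in N. giraulti males, as given above. On the lower side, Nasvi2EG001712 had 1.08, 0.616 and 1.43 CPM in N. giraulti females and 4.32, 4.77 and 7.62 CPM in N. vitripennis females. It was 2.62 log2 units lower in N. giraulti females (log2 -2.62, SE 0.34, edgeR adjusted p = 7.92e-05), and its females did not overlap. In males it had 964, 739 and 757 CPM in N. giraulti and 1341, 2282 and 1922 CPM in N. vitripennis.

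Nasvi2EG012041 and Nasvi2EG009595 were also lower in N. giraulti females, and both had fractional counts, so their levels are uncertain. The first had 0.544, 0.766 and 0.751 CPM in N. giraulti females and 1.99, 2.87 and 2.55 CPM in N. vitripennis females (log2 -2.04, SE 0.34, edgeR adjusted p = 0.000544). The second had 3.32, 3.39 and 2.92 CPM in N. giraulti females and 11.6, 6.32 and 9.79 CPM in N. vitripennis females (log2 -1.73, SE 0.34, edgeR adjusted p = 0.00178). Neither gene overlapped between the females. The calls of the 6 genes named for this contrast held under each alternative in which they were tested.

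**Figure D5:**
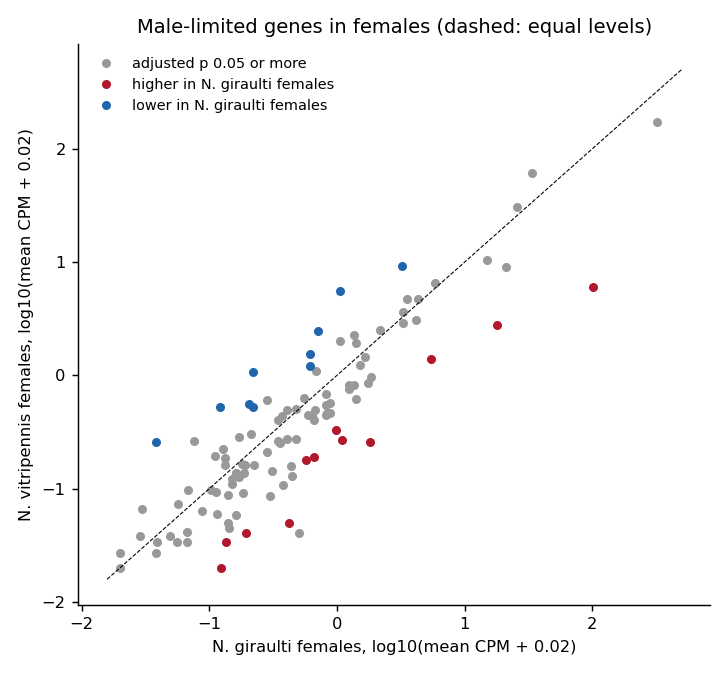
Mean level of the 110 male-limited genes in N. giraulti females (x axis) and N. vitripennis females (y axis), as log10(mean CPM + 0.02). The 12 genes called higher in N. giraulti females (red) lie right of the line of equal levels, the 10 called lower (blue) lie above it, and 11 of the 22 are under 1 CPM in both groups.

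Of the 110 genes, 11 were called for the species difference in females and in males alike. In 8 of the 11 the direction was the same in both sexes, which is 7.27% of the 110 against 17.9% of all genes tested. In 3 it was opposite, 2.73% against 0.974%. The male contrast was bounded by the rule, so these counts are a description. Blocking on replicate number, they were 15 and 7. No share of all genes was taken for that fit or for those that left out a library. The 8 became 5 without N. giraulti male replicate 3 and 13 without N. vitripennis female replicate 1. The 3 became 5 without N. giraulti female replicate 1 or N. vitripennis male replicate 1, 1 without N. giraulti male replicate 2 and 0 without N. vitripennis male replicate 3. Among the 8, N. giraulti had the higher level in both sexes in 4 and the lower level in 4. The male call of Nasvi2EG001712, among the lower ones, was lost in 4 of 20 alternatives, and that of Nasvi2EG009595 in 2 of 19, each of which left out a male library.

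The 3 genes with opposite directions are named after their values were seen. Nasvi2EG000144, whose counts held fractions, had 0.526, 0.340 and 0.343 CPM in N. giraulti females and 0.0213, 0 and 0.0680 CPM in N. vitripennis females. In males it had 17.8, 24.96 and 22.3 CPM in N. giraulti and 30.1, 69.6 and 57.6 CPM in N. vitripennis. Nasvi2EG006779 and Nasvi2EG007519 showed the same arrangement, on few female reads. Over 3 libraries, Nasvi2EG006779 had 69 in N. giraulti females and 15 in N. vitripennis females, and Nasvi2EG007519 had 12 and 2. The difference of the sex effects was called toward females in N. giraulti, meaning a smaller male excess there, for 11 genes, 10.0% against 2.73% of all genes. Over the 3 N. vitripennis female libraries, the reads of these genes ran from 0 in Nasvi2EG010600 to 614 in Nasvi2EG006381, with 3.02 in Nasvi2EG000144. Where such reads are few, the size of the shift is uncertain. The difference was called toward males for 1 gene, Nasvi2EG001712, which is 0.909% against 4.29%. Blocking on replicate number it was called for 4, 3.64% against 11.1%. It was called for 0 without any single male library, N. giraulti female replicate 1 or 2 or N. vitripennis female replicate 3, and for 4 and 2 without N. vitripennis female replicates 1 and 2. Both sex effects chose the genes, so these counts are a description. The 11 rose to 15 blocking on replicate number, with no share of all genes taken for that count. They fell to 5 without N. giraulti female replicate 2 or 3 and to 7 without N. giraulti male replicate 2. They fell to 6 without N. vitripennis female replicate 1 or 2 or N. vitripennis male replicate 3.

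Some of the genes stood next to each other in the table. There were 10 runs of at least 2 consecutive rows made up of male-limited genes, with 25 of the 110 genes in them, and 44 genes had another within 10 rows. The file gives no positions, so rows in a run are neighbours in the table, and their distance on a chromosome is not known. Of the 110 genes 13 had fractional counts, 11.8% against 16.7% of all genes tested, and no run was made up of such genes alone. Among the 188 genes that stood directly above or below one of the 110, 159 were tested. Of these, 52 were called higher in males in both species, 32.7% against 22.6% of all genes tested, and 32 were called higher in females in both, 20.1% against 24.1%. Among the 132 of them with whole counts the share called higher in males was 33.3%.

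The longest runs were 2 of 4 rows. The first held Nasvi2EG019621 to Nasvi2EG019624, and Nasvi2EG019627 stood 3 rows on. Nasvi2EG019622 had 456, 253 and 245 CPM in N. giraulti males and 351, 224 and 199 CPM in N. vitripennis males. Nasvi2EG019624 had 342, 271 and 215 CPM in N. giraulti males and 398, 403 and 257 CPM in N. vitripennis males. All 5 genes of this stretch averaged 288 CPM or more over the 6 male libraries, and their species differences in males lay between -0.74 and 0.30. In females the stretch was low throughout. Nasvi2EG019624 had 0.230, 0.216 and 0.172 CPM in N. giraulti females and 0.316, 0.0408 and 0.0678 CPM in N. vitripennis females.

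In the second run, Nasvi2EG005773 to Nasvi2EG005776, the species differed in males in both directions. Nasvi2EG005774 had 1420, 1504 and 1498 CPM in N. giraulti males and 1442, 1278 and 1022 CPM in N. vitripennis males. Nasvi2EG005775 had 1757, 1402 and 1369 CPM in N. giraulti males and 1542, 1363 and 1313 CPM in N. vitripennis males. Nasvi2EG005773 was 1.08 log2 units higher in N. giraulti males, with 431, 306 and 331 CPM there and 169, 141 and 195 CPM in N. vitripennis males. Nasvi2EG005776 went the other way, at -1.51, with 10.5, 11.1 and 11.4 CPM in N. giraulti males and 27.3, 29.7 and 39.8 CPM in N. vitripennis males. Nasvi2EG005773 and Nasvi2EG005774 had fractional counts, so their levels are uncertain. The males of the species did not overlap in Nasvi2EG005773 or Nasvi2EG005776, and they overlapped in Nasvi2EG005774 and Nasvi2EG005775.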

How the data were processed

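The authors deposited a table of estimated counts per gene for the 12 libraries, not scaled to library size. TopHat2 2.0, Cufflinks 2.1.0, HTSeq and edgeR are among the tools in the submitters' processing notes, with no role or order. The sources used here name no genome build, annotation or strandedness. Of the 24337 genes, 3372 had a fractional value in some library. The source of the fractions is not stated, and such genes are reported as uncertain, since reads may have been split between genes. CPM is the count divided by the library total, times 1000000.

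For tests the counts were rounded, genes were kept with filterByExpr (minimum count 10, 16536 genes), scaled by TMM and fitted in edgeR 4.0.16 (R 4.3.3) with a robust quasi-likelihood fit of all 12 libraries and a mean per group. The Benjamini-Hochberg adjustment ran over all genes. The SE is the log2 fold change over the square root of F. The fit was tested on simulated independent libraries, for the species difference in females alone and with changes set only in genes of higher mean count. That test does not cover genes with a few female reads or libraries that vary together. P-values measure the spread between libraries of pooled animals. The CPM values given for 3 counts are a conversion by library total and carry no interval.

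Replicate numbers pair libraries across groups. Deviations from group means correlated at r = 0.23 to 0.748 in the 18 pairs with the same number and at -0.63 to 0.406 in the 36 others. The labels do not say what a number shares.

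The 110 genes, the lists and the tests were chosen with earlier results of these data known. The 26 genes named by rule were the 6 with the most male reads, the 4 with the largest smaller sex difference, the 3 highest and 3 lowest in the male species difference, the 3 highest in females, the 3 lowest adjusted p in each direction of the female species difference, the steadiest and least steady pairs, the longest runs and the genes at each threshold. Alternatives were other scalings, no filter, the Wald test of DESeq2 1.42.0, the compared groups alone, a replicate block, genes with whole counts only, each library left out, and other thresholds of the rule. Lists that need gene names were not used.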

Additional observations from a re-analysis of the deposited data

Results flagged for a closer look

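What drew attention was a sex difference that itself differed between the species in a direct test. It was shifted toward females in N. giraulti, a smaller male excess, in 11 of the 110 genes, 10.0% against 2.73% of all genes tested. It was shifted toward males in 1, 0.909% against 4.29%. Among the genes named by rule these were Nasvi2EG006381, with a difference of -2.07 log2 units in N. giraulti minus N. vitripennis (edgeR adjusted p = 0.0402), and Nasvi2EG001712, with 1.67 (edgeR adjusted p = 0.0379). The call of Nasvi2EG006381 was lost in 9 of 19 alternatives, each of which left out a library, over a range of adjusted p from 0.00325 to 0.101. That of Nasvi2EG001712 was lost in 11 of 19, library size alone and upper-quartile scaling among them, over a range from 0.0134 to 0.113. Both sex effects had chosen the genes, so neither value is independent of the choice.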

How the results depend on the processing

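Of the alternatives to the main counts and shares, 199 left the value within 1.5 times or 1 SD of it and 34 moved it. The sex difference was called for all 110 genes, or for all 97 with whole counts, in each alternative fit. The number of genes was 59 with a species limit of 1 log2 unit, and other settings of the rule kept it within 1.5 times. The genes called lower in N. giraulti males were 32, 29.1% against 16.6% of all genes. With the replicate block they were 53, 48.2% against 23.5%. They were 51 with library size alone and 9 to 41 without single libraries. In females the 12 called higher, 10.9% against 12.5% of all genes, became 19 with upper-quartile scaling and 8 to 19 without single libraries. The 10 called lower, 9.09% against 18.4%, became 6 with the compared groups alone. The single shift of the sex difference toward males was 0.909% against 4.29% of all genes. It became 2 with DESeq2 and 0 with library size alone or upper-quartile scaling. With the replicate block it became 4, 3.64% against 11.1%. Without single libraries it was 0 to 4. The 11 toward females were 10.0% against 2.73% of all genes. They became 15 with the Wald test of DESeq2, 15 with the replicate block and 13 with library size alone. Without single libraries they were 5 to 12. Among the alternatives for these species differences and shifts, shares of all genes were taken under the replicate block alone. Even there none was taken for the 15 toward females. Without the most abundant gene the share of counts was 3.77% in N. giraulti males and 3.28% in N. vitripennis males. The causes were not tested. Female levels near 3 counts limit what can be seen of species differences in females.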
